A study of Mus musculus with 16 samples.

Results

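The respiratory chain of the mouse thyroid was followed through 91 protein-coding genes, of 21640 genes counted, that encode subunits of complexes I to V. They were chosen by name: the Nduf, Sdh, Uqcr, Cyc1, Cox4 to Cox8 and Atp5 families together with the protein-coding genes of the mitochondrial DNA. Cox7a1, Cox8b and the Atp5s genes were left out of the choice. Of the 91, 80 are nuclear (35 of complex I, 4 of complex II, 9 of complex III, 16 of complex IV and 16 of complex V) and 11 are mitochondrial (6 of complex I, 1 of complex III, 3 of complex IV and 1 of complex V). Ndufa4 and Ndufa4l2 were placed with complex IV, where the Ndufa4 protein is now assigned. Cox7b2, Cox8c, mt-Atp8 and mt-Nd4l were not analysed here.

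Poly(A) RNA of whole thyroid was sequenced from 16 male wild-type C57Bl/6J mice, 1 library per mouse, that entered their diets at 8 weeks of age. The control diet (CD) was chow, and the overnutrition diet (HF+SD) was a high-fat diet with sucrose in the drinking water. There were 4 mice per diet after 3 weeks and 4 other mice per diet after 6 weeks, and CD mice M22, M43, M45 and M48 stood against HF+SD mice M5, M18, M34 and M35 at 6 weeks. At 3 weeks, CD mice M53, M54, M55 and M96 stood against HF+SD mice M7, M19y, M20y and M31. Per-mouse values below keep these orders. The labels put 4 mice in each group and all were used, although the published group size of the CD at 6 weeks is smaller by 1. The library names begin with a different number at each time point, whose meaning the labels do not give, so that levels at 3 and 6 weeks cannot be told apart from that difference and were not compared.

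Oxidative phosphorylation runs through a series of protein assemblies in the inner mitochondrial membrane. Complex I (NADH dehydrogenase) and complex II (succinate dehydrogenase, which is also an enzyme of the tricarboxylic acid cycle) pass electrons to ubiquinone, complex III (cytochrome bc1) passes them to cytochrome c, and complex IV (cytochrome c oxidase) passes them to oxygen. Complexes I, III and IV pump protons, and complex V (ATP synthase) uses the gradient to make ATP. The mitochondrial genome encodes a few hydrophobic core subunits of complexes I, III, IV and V, whereas every subunit of complex II and all others are nuclear and are imported. Several subunits of complex IV come in paralogs that differ between tissues, with heart and skeletal muscle using forms of their own, and thyrocytes, which make thyroid hormone, use peroxide and ATP for it.

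Library totals were 30025256 to 48508653 counts. Thyroglobulin alone took 4.73 to 11.3% of the counts in CD and 9.53 to 13.6% in HF+SD mice at 6 weeks, and 26.8 to 29.7% and 27.3 to 29.6% at 3 weeks, and all 10 thyrocyte marker genes were counted in every mouse. The 6-week CD libraries stood apart from each other in skeletal muscle transcripts. The summed share of 38 muscle marker genes was 0.117, 4.09, 17.4 and 12.5% of counts in M22, M43, M45 and M48, against 0.145 to 0.486% in the HF+SD mice. Of these 38 genes, 37 were counted in every mouse of both diets at 6 weeks, none was at 0 throughout a group, and 35 of the 36 tested were lower in the HF+SD mice. At 3 weeks the share was 0.0130 to 0.0193% in CD and 0.0224 to 0.0262% in HF+SD mice, with Tnni1 at 0 in all CD mice and Myl2 at 0 in all HF+SD mice. In bulk tissue, fewer cells of a type and less RNA per cell cannot be told apart. M22 also had the highest share of parathyroid marker transcripts, 1.97% of counts, against 0.191% to 0.539% in the other CD mice and 0.0660 to 0.284% in the HF+SD mice of 6 weeks.

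Before any comparison, 4 of the 11 mitochondrial genes had to be set apart. The nuclear genome holds copies of stretches of mitochondrial DNA, and in the GENCODE M21 transcripts (build GRCm38) the coding sequences of mt-Co2, mt-Atp6 and mt-Co3 were identical, over 681, 678 and 783 aligned bases, to the nuclear pseudogenes Gm28661, Gm10925 and Gm28437 of chromosome 1. These genes were set apart because another gene matched at least 90% of their coding length at 98% identity or more. The coding sequence of mt-Nd3, a subunit of complex I, matched the pseudogene Gm28438 at 344 of 345 bases. mt-Nd3 lies at chrM:9459-9806 on the plus strand and Gm28438 at chr1:24612775-24613119 on the minus strand. The first 33 bases of both are shown because their only difference is here, T3C counted from the first base of the coding sequence of mt-Nd3, and is marked by a capital:
mt-Nd3: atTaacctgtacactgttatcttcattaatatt
Gm28438: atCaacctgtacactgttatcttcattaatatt

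A read pair from such a stretch can be placed in more than 1 position, and how the authors' counting treated it is not given in the sources used here. The counts of these 4 genes were far below those of their neighbours on the mitochondrial genome. mt-Co3 had 2, 14, 109 and 17 counts in the CD mice and 10, 1, 3990 and 8 in the HF+SD mice of 6 weeks. At 3 weeks it had 5, 1, 6 and 2 and 4, 1589, 2 and 6. Single libraries were thus high, M34 and M19y, among others near 0. mt-Co2, the copper-binding subunit of complex IV, had 2, 4, 2 and 544 counts in the CD mice and 2, 0, 3 and 13 in the HF+SD mice at 6 weeks. mt-Atp6, the proton channel subunit of complex V, had 3, 0, 27 and 3313 and 2, 29, 2 and 44. The library M48 held nearly all counts of both. By comparison, mt-Co1, the catalytic subunit of complex IV, had 293196 to 1573134 counts over the 16 libraries. mt-Co2, mt-Atp6, mt-Co3 and mt-Nd3 are given as uncertain and left out of the mitochondrial summaries, which rest on the other 7 genes (mt-Nd1, mt-Nd2, mt-Nd4, mt-Nd5, mt-Nd6, mt-Cytb and mt-Co1). Parts of mt-Nd4 (876 of 1378 bases, Gm28439) and mt-Co1 (479 of 480 aligned bases, Gm29216) were also shared. Below the 98% identity, Gm13340 matched the whole coding length of mt-Co1 at 97.6%, Gm11408 that of mt-Nd6 at 93.6% and Gm11410 nearly that of mt-Cytb at 92.9%, so that their counts hold some uncertainty. mt-Nd3 had 6 to 53 counts over the 16 libraries. Among the nuclear subunits, 12 of 80 had a transcript of another gene that matched at least 90% of their coding length at 98% identity or more, Ndufb4, Atp5g1, Atp5g2, Atp5l, Cox5b and Uqcrb among them, and their values are uncertain for the same reason.

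**Figure D1:**
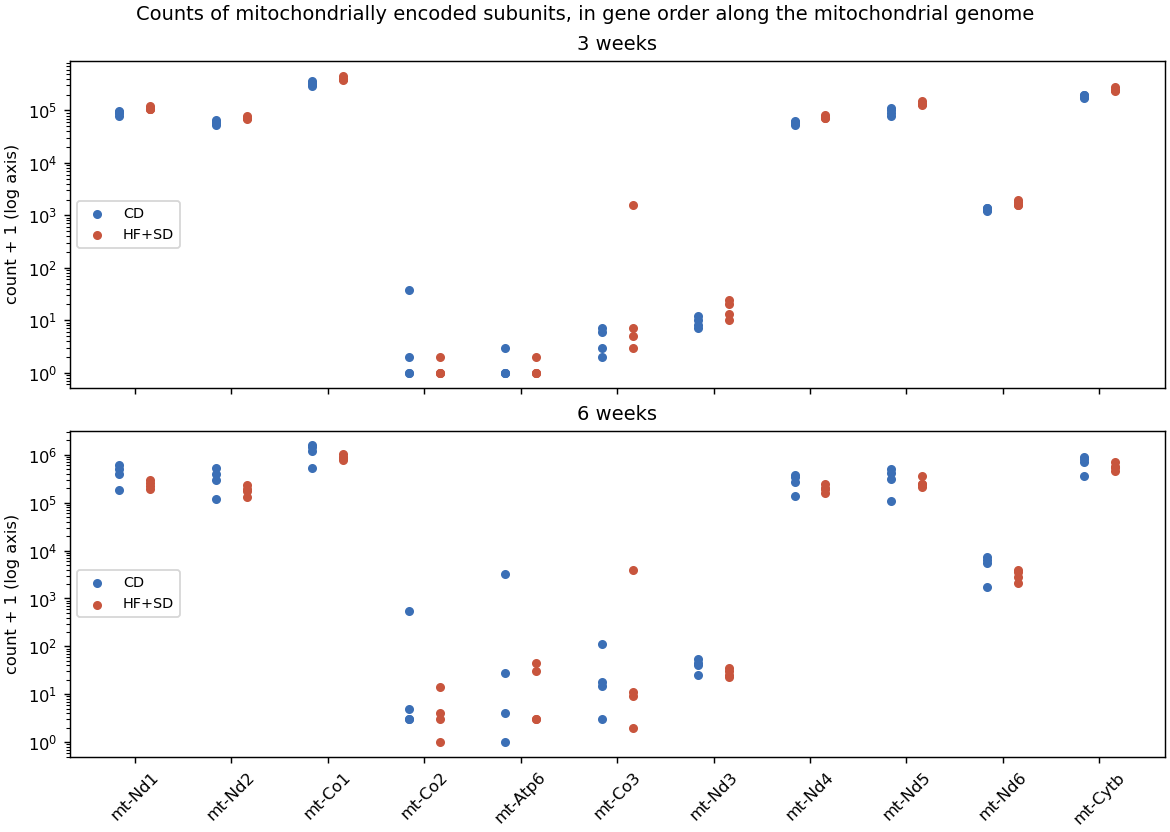
Counts of the 11 mitochondrially encoded subunits in every mouse (count + 1, log axis), ordered along the mitochondrial genome, at 3 weeks (top) and 6 weeks (bottom), with CD in blue and HF+SD in red. mt-Co2, mt-Atp6, mt-Co3 and mt-Nd3, which have a nuclear copy of 99.7% to 100% identity, lie orders of magnitude below their neighbours, with isolated high libraries such as mt-Co3 in M34 at 3990 counts.

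At 6 weeks, 35 respiratory chain subunits were lower and 3 were higher on the HF+SD at an adjusted p under 0.05 (edgeR's quasi-likelihood test over 18249 genes, Benjamini-Hochberg adjustment), of 90 members tested (mt-Co2 was below the filter on low counts). All 38 were nuclear. Of all genes tested, 9.55% were lower and 12% higher by the same rule. The median log2 fold change (HF+SD over CD) was -0.65 over the 80 nuclear subunits, of which 72 were below 0, and -0.01 over all genes. With an absolute log2 fold change above 1 as well, 8 members were lower and 2 higher, against 6.01% and 6.64% of all genes. Every HF+SD mouse lay below every CD mouse for 36 members (background 9.97%) and above for 3 (background 13.8%). Without the 12 nuclear subunits that share their sequence, 30 of 68 were lower and 3 higher.

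The CD mice differed among themselves as much as from the HF+SD mice. The mean log2 CPM of the nuclear subunits was 7.06, 7.51, 8.13 and 7.84 in M22, M43, M45 and M48 and 7.13, 7.14, 7.06 and 7.07 in the HF+SD mice, where CPM divides counts by library sizes after TMM scaling (trimmed mean of M-values). M22, the CD mouse with the lowest muscle share, was at the level of the HF+SD mice, and the other CD mice followed the order of their muscle shares. The same order, M45 above M48 above M43 above M22, was found in 79 of the 90 members. M22 exceeded all HF+SD mice in 37 members, lay within their range in 16 and below it in 37. This order and these positions were counted for members only, and the share of all genes was not counted. With the muscle score (mean log2 CPM of the muscle markers) as a covariate, edgeR called 0 members lower and 3 higher, with 10 lower at an unadjusted p under 0.05, and the median of the nuclear subunits was -0.17. With M22 as the only CD mouse, assumed to vary like the HF+SD mice, 0 were lower (5 at an unadjusted p under 0.05) and 2 higher, and the median was -0.01. DESeq2 was not run on these fits, and over all 8 mice its Wald test called 49 members lower and 3 higher, beside 14.2% and 14.1% of all genes. The covariate left 4.04% of all genes lower and 6.70% higher, and M22 as the only CD mouse 1.95% and 3.22%.

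The number of lower members also moved with single libraries. It was 64 without M22, 30 without M43, 14 without M45 and 5 without M48, where 14.9%, 9.62%, 6.80% and 5.04% of all genes were lower. Leaving out an HF+SD mouse gave 8 without M5, 1 without M18, 1 without M34 and 4 without M35, where 5.90%, 2.99%, 3.01% and 4.16% of all genes were lower. The number of higher members stayed at 2 to 4 in these 8 fits. The median of the nuclear subunits ranged from -0.80 to -0.47 over the same fits, always below 0. Scaled to thyrocyte genes, which moved the median of all genes to -0.59, 72 members were lower and 1 higher, beside 37.7% and 4.37% of all genes. The mean log2 CPM of the scaling genes was 8.36, 7.69, 7.47 and 7.60 in the CD mice and 8.25 to 8.41 in the HF+SD mice. This scaling therefore raised all values of M43, M45 and M48, the CD mice with high muscle shares. Of the 9 scaling genes, 2 were themselves higher on the HF+SD. In 1 fit of all 16 libraries, 64 were lower and 4 higher, beside 18.2% and 14.5% of all genes.

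**Figure D2:**
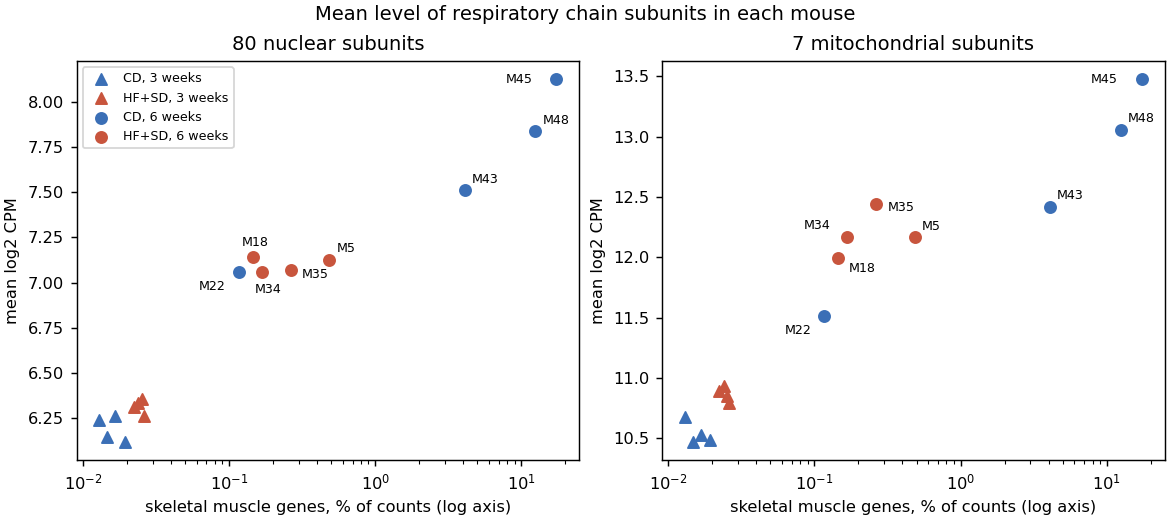
Mean log2 CPM of the 80 nuclear subunits (left) and of the 7 mitochondrial subunits without a nuclear copy of at least 98% identity over 90% of their length (right) in each mouse, against the percentage of counts from 38 skeletal muscle genes (log axis). Triangles are 3 weeks, circles 6 weeks, blue is CD and red HF+SD. At 6 weeks, M22 lies beside the HF+SD mice for the nuclear subunits and below them for the mitochondrial ones, and M43, M48 and M45 rise in the order of their muscle share.

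Complex I held most of the lower subunits. Of its 35 nuclear members, 23 were lower and 0 higher, with a median log2 fold change of -0.72. Over all genes tested at 6 weeks, 9.55% were lower and 12% higher. The core subunits that carry electrons from NADH to ubiquinone were mostly among them. Ndufs7, which holds the last iron-sulphur cluster before ubiquinone, had 98.03, 132, 252 and 195 CPM in the CD mice and 79.9, 80.3, 68.6 and 79.6 CPM in the HF+SD mice (log2 fold change -1.13, standard error 0.27, adjusted p = 0.0182). Its groups did not overlap, but M22 was close to the HF+SD mice. With M22 as the only CD mouse, the log2 fold change was -0.35. Ndufv1, the NADH-binding subunit (-0.89, adjusted p = 0.0308), Ndufv2 (-0.82, adjusted p = 0.0395) and Ndufs8 (-0.69, adjusted p = 0.0197) were lower too. Ndufs1, the largest subunit, and Ndufs3 had log2 fold changes of -0.92 and -0.46 and did not pass (adjusted p = 0.0845 and 0.185).

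Accessory subunits of the membrane arm gave the smallest p-values of complex I. Ndufb4 had 61.8, 74.5, 128 and 104 CPM in the CD mice and 44.4, 38.1, 42.7 and 47.9 CPM in the HF+SD mice (log2 fold change -1.09, standard error 0.22, adjusted p = 0.0101). Ndufb7 had 103, 121, 212 and 165 CPM in the CD mice and 79.9, 76.8, 73.1 and 79.3 CPM in the HF+SD mice (log2 fold change -0.96, standard error 0.22, adjusted p = 0.0158). Ndufb9 had 46.7, 52.1, 109.8 and 82.3 CPM in the CD mice and 33.1, 34.7, 28.6 and 37.2 CPM in the HF+SD mice (log2 fold change -1.12, standard error 0.26, adjusted p = 0.0176). In all of them every HF+SD mouse was below every CD mouse, M22 included, by a margin far smaller than the distance from M22 to M45. With M22 as the only CD mouse, their log2 fold changes were -0.52, -0.42 and -0.49, with adjusted p-values of 0.126, 0.146 and 0.164. M22 exceeded all HF+SD mice in 23 of the 35 nuclear subunits of complex I, compared with 14 of the 45 of complexes II to V. The share of all genes was not counted here either. Ndufa1 and Ndufb8 were the complex I subunits above 0, at 0.02 and 0.04.

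In complex II, 1 of the 4 subunits was lower and 0 were higher, beside 9.55% and 12% of all genes. Sdhb, the iron-sulphur subunit, had 192, 287, 488 and 397 CPM in the CD mice and 153, 159, 149.8 and 154 CPM in the HF+SD mice (log2 fold change -1.15, standard error 0.26, adjusted p = 0.0160) and its groups did not overlap. M22 was the CD mouse closest to the HF+SD mice. The log2 fold change of Sdhb was -0.48 with the muscle score as a covariate and -0.32 with M22 as the only CD mouse. Sdhd, a membrane anchor, had 158, 242, 301 and 229 CPM in the CD mice and 241, 265, 256 and 198 CPM in the HF+SD mice (log2 fold change 0.05, standard error 0.20, adjusted p = 0.893), with M22 lowest of all 8 mice. Sdha, the flavoprotein, had 369.8, 668, 932 and 754 CPM in the CD mice and 468, 521, 470.3 and 403 CPM in the HF+SD mice (log2 fold change -0.55, standard error 0.26, adjusted p = 0.163), and there too M22 was the lowest. Sdhc, the other anchor, differed by -0.25 on the log2 scale (adjusted p = 0.495).

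Of the 9 nuclear subunits of complex III, 3 were lower and 0 higher, beside 9.55% and 12% of all genes. All 9 were below 0 (median -0.70). Uqcrc1, a core protein of the matrix side, had 126, 182, 356 and 294 CPM in the CD mice and 113, 119.6, 98.97 and 115 CPM in the HF+SD mice (log2 fold change -1.10, standard error 0.29, adjusted p = 0.0277). M22 exceeded the highest HF+SD mouse by a few CPM, whereas M45 and M48 had more than 2 times its level. Uqcrb and Uqcrq, small subunits, were also lower (-0.86 and -0.83, adjusted p = 0.0383 and 0.0421). The electron carriers of the complex, Uqcrfs1 (the Rieske protein, -0.75) and Cyc1 (cytochrome c1, -0.42), did not pass (adjusted p = 0.0863 and 0.205), nor did Uqcrc2 and Uqcrh (-0.70 and -0.38, adjusted p = 0.0804 and 0.180).

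Complex IV was the only complex with members in both directions, 3 lower and 3 higher of 16, beside 9.55% and 12% of all genes. Its median was -0.29. Its paralogs are described by pairs. Cox6a2 is the heart and skeletal muscle form of subunit VIa and Cox6a1 the form of most other tissues. Cox6a2 had 7.23, 164, 725 and 504 CPM in the CD mice and 24.3, 4.17, 4.86 and 5.83 CPM in the HF+SD mice (log2 fold change -5.16, standard error 1.23, adjusted p = 0.0186). It ranged over 2 orders of magnitude within the CD, M22 lay below the HF+SD mouse M5, and M5 had the highest muscle share of the HF+SD mice. With M22 as the only CD mouse its log2 fold change was 0.44 (adjusted p = 0.823). Cox6a1 had 186, 169, 126 and 142 CPM in the CD mice and 151, 177, 157 and 169 CPM in the HF+SD mice (log2 fold change 0.07, standard error 0.15, adjusted p = 0.772). Within the CD it ran the other way, lowest in M45 and M48. Per kb of exon, Cox6a2 was 4.02% to 596% of Cox6a1 in the CD mice and 2.44% to 16.6% in the HF+SD mice of 6 weeks. At 3 weeks it was 0.329% to 1.10% and 0.250% to 0.677%.

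The order of Cox6a1 was shared by Cox8a, the form of subunit VIII outside muscle, which had 348, 337, 217 and 247 CPM in the CD mice and 375, 419, 381 and 373 CPM in the HF+SD mice (log2 fold change 0.43, standard error 0.18, adjusted p = 0.120). The HF+SD mice all exceeded the CD mice, and the CD mice with the largest muscle shares were the lowest. Cox7a2, the non-muscle form of subunit VIIa, had 244, 287, 279 and 255 CPM in the CD mice and 267, 267, 267 and 246 CPM in the HF+SD mice (log2 fold change -0.02, standard error 0.12, adjusted p = 0.911), and the groups overlapped. The muscle forms Cox7a1 and Cox8b, outside the members, were lower by log2 fold changes of -2.68 and -3.67 (adjusted p = 0.00671 and 0.000903). Both are also expressed in brown fat, whose marker genes were lower in 6 of 7 tested, with summed shares of 0.0226 to 0.0665% in CD and 0.00350 to 0.0108% in HF+SD mice, and the part of these tissues in the values was not tested.

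The 3 subunits that were higher are the low-level paralogs of other complex IV subunits. Ndufa4l2, a hypoxia-induced relative of Ndufa4, had 1.69, 1.92, 1.62 and 2.50 CPM in the CD mice and 4.30, 5.24, 4.33 and 7.44 CPM in the HF+SD mice (log2 fold change 1.46, standard error 0.24, adjusted p = 0.00411). Cox4i2, the hypoxia-related form of subunit IV, had 1.89, 1.48, 1.59 and 1.54 CPM in the CD mice and 3.82, 4.11, 3.84 and 3.14 CPM in the HF+SD mice (log2 fold change 1.20, standard error 0.18, adjusted p = 0.00233). For both, all HF+SD mice exceeded all CD mice, M22 included. Cox6b2, known as the testis form of subunit VIb, had 17.1, 12.6, 7.76 and 10.3 CPM in the CD mice and 17.1, 23.5, 21.8 and 22.4 CPM in the HF+SD mice (log2 fold change 0.83, standard error 0.24, adjusted p = 0.0355), and the HF+SD mouse M5 was at the level of M22. Given the muscle score as covariate, the log2 fold changes were 1.58 for Ndufa4l2, 1.06 for Cox4i2 and 0.38 for Cox6b2 (adjusted p = 0.0182, 0.0232 and 0.249), and with M22 as the only CD mouse 1.64, 0.97 and 0.31 (adjusted p = 0.0656, 0.124 and 0.464). Their main forms had log2 fold changes of -0.60 (Ndufa4), -0.31 (Cox4i1) and -0.60 (Cox6b1), none of which passed. Endothelial marker genes were higher in 7 of 8 at 6 weeks, with summed shares of 0.0231 to 0.0475% of counts in CD and 0.115 to 0.135% in HF+SD mice. Markers of pericytes and other mural cells, a list of 7 genes added after the values were seen, were higher in 4, with shares of 0.0388 to 0.0529% and 0.101 to 0.108%. The part of these cells in the values of Cox4i2 and Ndufa4l2 was not tested. Cox7b and Cox5b were the remaining lower members of complex IV (-0.77 and -0.75, adjusted p = 0.0245 and 0.0462).

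**Figure D3:**
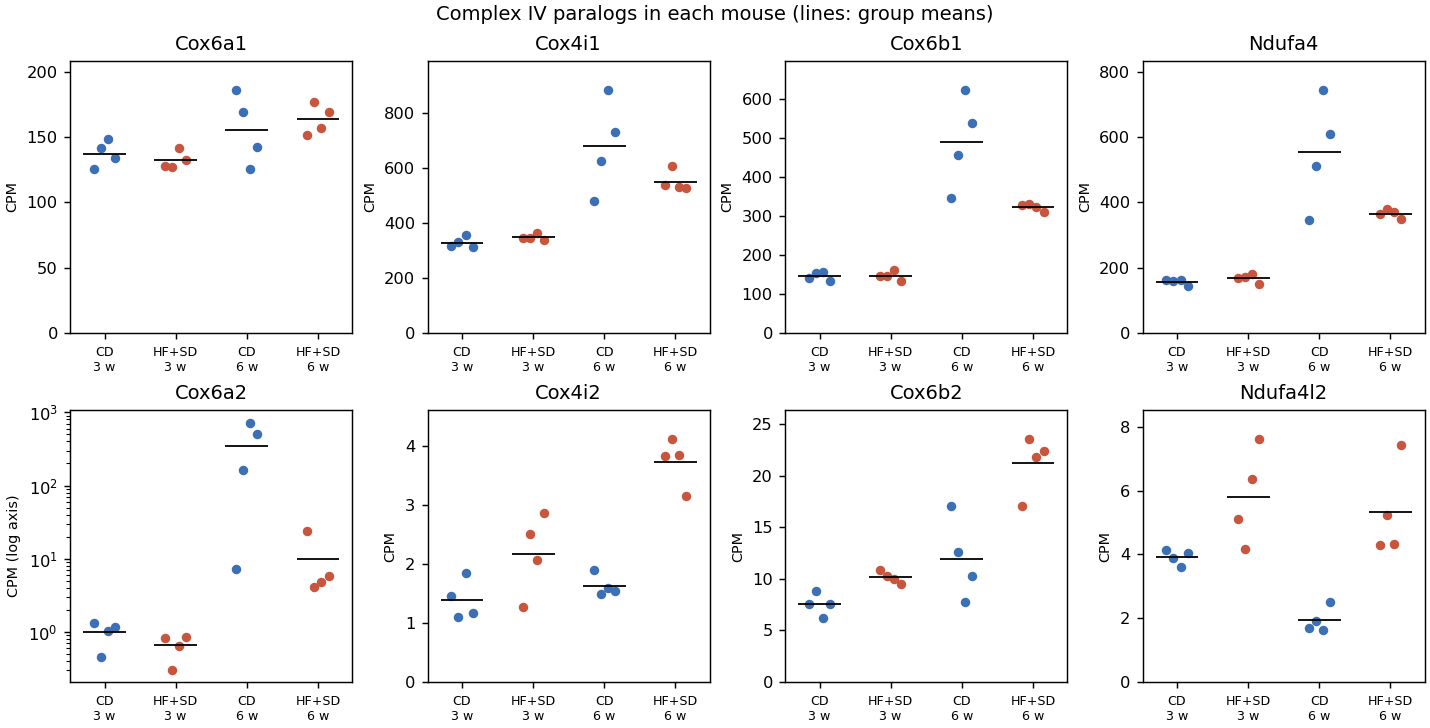
CPM of the main (top) and the alternative (bottom) forms of 4 complex IV subunits in each mouse, by diet and week, with CD in blue, HF+SD in red and lines at the group means. Cox6a2, on a log axis, spans 7.23 to 725 CPM within the 6-week CD group, whereas Cox4i2 and Ndufa4l2 separate the diets at 6 weeks without overlap, at 1.48 to 1.89 against 3.14 to 4.11 CPM for Cox4i2.

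Complex V had 5 lower and 0 higher members of 16, beside 9.55% and 12% of all genes. All 16 were below 0 (median -0.59). Atp5e, the small epsilon subunit of the central stalk, had 206, 258, 520.3 and 399.6 CPM in the CD mice and 172, 178, 163 and 177 CPM in the HF+SD mice (log2 fold change -1.01, standard error 0.27, adjusted p = 0.0282). For Atp5e the log2 fold change was -0.37 with the muscle score as a covariate and -0.26 with M22 as the only CD mouse. Atp5j2, Atp5k and Atp5l, membrane subunits of the dimer interface, and Atp5h of the outer stalk were lower by the same test (-0.86, -0.85, -0.73 and -0.53). The catalytic head did not pass. Atp5b, the beta subunit, had 860.4, 1610.3, 2471 and 1891 CPM in the CD mice and 1270.4, 1314, 1152 and 958 CPM in the HF+SD mice (log2 fold change -0.54, standard error 0.30, adjusted p = 0.221), with M22 the lowest of all mice and M45 the highest. Atp5a1 (alpha) and Atp5c1 (gamma) had log2 fold changes of -0.38 and -0.85 (adjusted p = 0.381 and 0.0801). The Atp5g genes encode the same mature subunit c of the rotor ring behind different import sequences. Atp5g1 had 108, 189, 492 and 355 CPM in the CD mice and 190.1, 175, 163 and 161 CPM in the HF+SD mice (log2 fold change -0.73, standard error 0.40, adjusted p = 0.216), with M22 again lowest. Atp5g2 and Atp5g3 had log2 fold changes of -0.36 and -0.35 (adjusted p = 0.280 and 0.347). Per kb of exon, Atp5g1 was 17.4% to 33.1% of Atp5g3 in CD and 20.9% to 21.5% in HF+SD mice, and Atp5g2 was 39.3% to 46.7% and 35.8% to 47.01%.

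By edgeR's quasi-likelihood test and by DESeq2's Wald test, 0 of the 7 mitochondrially encoded subunits of the summaries passed at 6 weeks, and 0 and 3 of them were lower at an unadjusted p under 0.05. The 7 genes all had log2 fold changes below 0, -0.91 to -0.30, with a median of -0.52. mt-Nd5, a proton-pumping subunit of complex I, had 3079.6, 7255, 16530.5 and 11691 CPM in the CD mice and 6534, 6669, 7180.1 and 9487 CPM in the HF+SD mice (log2 fold change -0.37, standard error 0.44, adjusted p = 0.586). mt-Co1 had 15256, 27796, 51107 and 40710.3 CPM in the CD mice and 23934, 24321, 25168 and 28469 CPM in the HF+SD mice (log2 fold change -0.40, standard error 0.36, adjusted p = 0.452). M22 was the lowest of the 8 mice in all 7 genes, below every HF+SD mouse, and M45 and M48 were the highest in all 7. Without M22, 3 of the 7 were lower. Of the others tested, mt-Nd3 differed by -0.57 on the log2 scale (adjusted p = 0.216), and mt-Co3 and mt-Atp6 rested on the single libraries given above. With M22 as the only CD mouse the median of the 7 was 0.62, and mt-Nd5 (1.27, adjusted p = 0.0270) and mt-Co1 (0.73, adjusted p = 0.0309) passed in the other direction. With the muscle score as a covariate it was 0.45, and mt-Nd5 alone passed (0.95, adjusted p = 0.0443). The 7 genes took 4.82, 7.56, 10.5 and 9.91% of counts in the CD mice and 6.54, 6.27, 7.25 and 8.50% in the HF+SD mice.

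**Figure D4:**
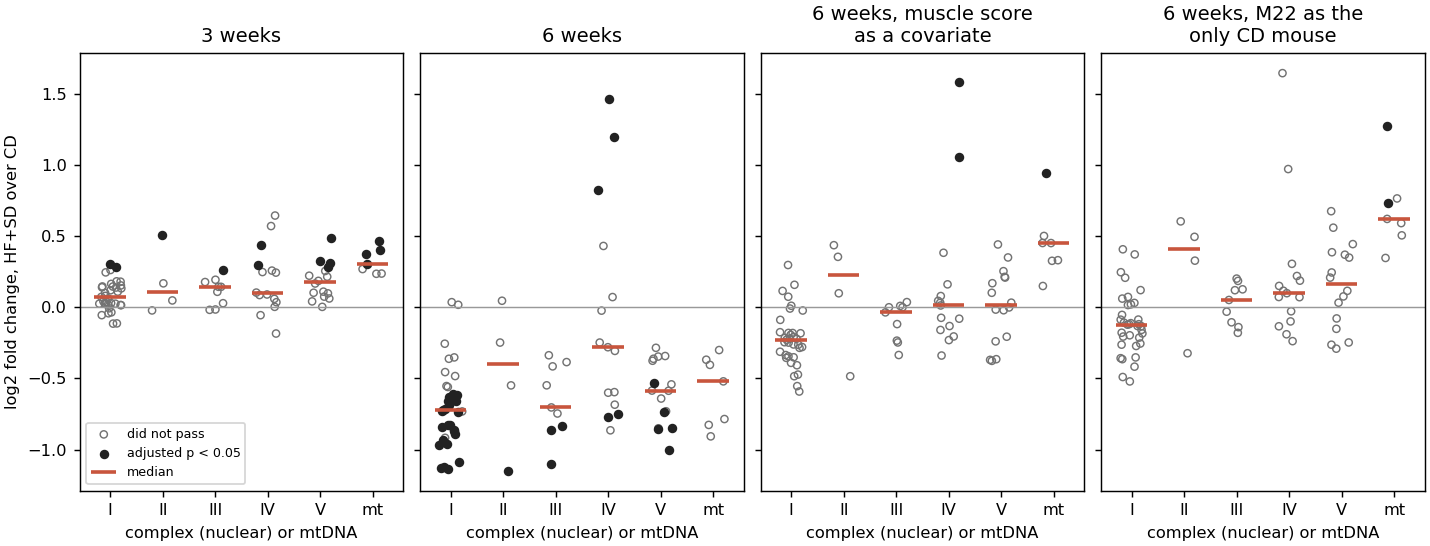
Log2 fold change (HF+SD over CD) of each tested subunit by complex for the nuclear genes and for the 7 mitochondrial genes (mt), at 3 weeks, at 6 weeks, at 6 weeks with a muscle score as covariate, and at 6 weeks with M22 as the only CD mouse. Filled points passed at an adjusted p under 0.05, red lines are medians, and Cox6a2 and the 4 mitochondrial genes set apart for their copies are left out. The 6-week medians of -0.72 for complex I and -0.52 for the mitochondrial genes become -0.12 and 0.62 with M22 alone.

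At 3 weeks, with muscle transcripts at or below 0.0262% of counts in every library, 14 respiratory chain subunits were higher in the HF+SD mice and 0 were lower, of 88 tested among 17238 genes (edgeR's quasi-likelihood test). mt-Co2, mt-Co3 and mt-Atp6 were below the filter on low counts. At an unadjusted p under 0.05, 33 members were higher and 1 lower, a count not made over all genes. Over all genes tested, 9.07% were higher and 5.78% lower at an adjusted p under 0.05. No member passed with an absolute log2 fold change above 1, against 3.25% of all genes higher and 1.4% lower at that size. The median log2 fold change was 0.11 over the 80 nuclear subunits, 68 of them above 0, and 0.30 over the 7 mitochondrial ones, all above 0, beside -0.01 over all genes. In 24 members the lowest HF+SD mouse exceeded the highest CD mouse (background 13.1%), and in 1, Cox7a2l, the reverse held (background 10.5%). By genome, 10 of 80 nuclear and 4 of 7 mitochondrial members were higher.

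These counts moved with single libraries as well. The number of higher members was 5 without M53, 15 without M54, 22 without M55 and 5 without M96, and 4 without M7, 5 without M19y, 4 without M20y and 7 without M31. The share of all genes that were higher moved from 5.64% (without M20y) to 11.5% (without M55) over these fits. No member was lower in any of these fits. In 1 fit of all 16 libraries by edgeR 0 members were higher, with 9 at an unadjusted p under 0.05, and scaled to thyrocyte genes, which moved the median of all genes to -0.07, 1 was. These fits called 5.12% and 5.52% of all genes higher. By DESeq2's Wald test 20 were higher and 1 lower, beside 11.8% and 9.70% of all genes. The medians of the nuclear and of the 7 mitochondrial subunits stayed above 0 in these fits.

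The mitochondrially encoded subunits took 2.07, 2.14, 2.12 and 2.03% of counts in the CD mice and 2.65, 2.65, 2.63 and 2.41% in the HF+SD mice of 3 weeks, without overlap. mt-Cytb, cytochrome b of complex III, had 4412, 4813, 5099 and 4563 CPM in the CD mice and 6328, 6366, 6237 and 6008 CPM in the HF+SD mice (log2 fold change 0.40, standard error 0.08, adjusted p = 0.0107). mt-Nd5 had 2232, 2195, 2896 and 2375 CPM in the CD mice and 3489, 3458, 3266 and 3192 CPM in the HF+SD mice (log2 fold change 0.47, standard error 0.10, adjusted p = 0.0158). mt-Nd6, the complex I gene on the opposite strand of the mitochondrial DNA, had 33.5, 34.3, 33.1 and 32.05 CPM in the CD mice and 49.2, 41.1, 39.8 and 41.9 CPM in the HF+SD mice (log2 fold change 0.37, standard error 0.08, adjusted p = 0.0158). Every HF+SD mouse exceeded every CD mouse in these genes, and likewise in mt-Nd4, which also passed (0.30, adjusted p = 0.0369), and in mt-Nd1 and mt-Co1, which did not (0.24 and 0.27, adjusted p = 0.0758 and 0.0628). Reads of mt-Nd6 and of the strand opposite cannot be told apart where counting ignores strand, and the setting is not given in the sources used here. The groups overlapped in mt-Nd2 (0.24, adjusted p = 0.107). The summed counts of the nuclear members were 0.430, 0.454, 0.406 and 0.419 times those of all 11 mitochondrial members in the CD mice. In the HF+SD mice they were 0.369, 0.363, 0.383 and 0.375 times, again without overlap. This ratio includes the 4 mitochondrial genes set apart and the 12 nuclear subunits with copies.

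Sdhd had the smallest p-value of all members at 3 weeks. This membrane anchor of complex II had 92.6, 100.1, 97.05 and 91.5 CPM in the CD mice and 138, 140.1, 136 and 128 CPM in the HF+SD mice (log2 fold change 0.51, standard error 0.07, adjusted p = 0.00136). The lowest HF+SD mouse stood well above the highest CD mouse. Of the other subunits, Sdhc had 115, 126, 129.7 and 113 CPM in the CD mice and 132, 135, 144 and 133 CPM in the HF+SD mice (log2 fold change 0.17, standard error 0.07, adjusted p = 0.150), also without overlap, while Sdha and Sdhb had log2 fold changes of 0.05 and -0.02 (adjusted p = 0.718 and 0.878) and overlapped.

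Complex V held 4 of the 10 higher nuclear subunits, and 8 of its 16 members did not overlap between the diets, with all 16 above 0 (median 0.18). Atp5g1 had 60.7, 60.3, 70.5 and 47.2 CPM in the CD mice and 83.6, 80.7, 88.1 and 81.7 CPM in the HF+SD mice (log2 fold change 0.49, standard error 0.11, adjusted p = 0.0187). Atp5g3 had 182, 191, 209.6 and 163 CPM in the CD mice and 240.1, 222, 239 and 236 CPM in the HF+SD mice (log2 fold change 0.33, standard error 0.09, adjusted p = 0.0314). Both separated the diets, whereas Atp5g2, which encodes the same mature subunit, had 68.5, 70.7, 66.9 and 63.05 CPM in the CD mice and 68.7, 68.98, 70.3 and 68.9 CPM in the HF+SD mice (log2 fold change 0.04, standard error 0.06, adjusted p = 0.698) and did not. Per kb of exon, Atp5g2 was 41.5% to 50.3% of Atp5g3 in CD mice and 37.3% to 40.5% in HF+SD mice. Atp5mpl, a small proteolipid of the complex, and Atp5o, which joins the outer stalk to the head, were higher too (0.31 and 0.28, adjusted p = 0.0401 and 0.0452). Of the head, Atp5a1 had 693, 780.0, 809 and 681 CPM in the CD mice and 883, 869.9, 904 and 879 CPM in the HF+SD mice, without overlap but above the threshold (log2 fold change 0.25, standard error 0.08, adjusted p = 0.0611). Atp5c1 (0.17, adjusted p = 0.116) separated as well, and Atp5b (0.10, adjusted p = 0.463) did not.

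In complex IV, 2 of 16 were higher, beside 9.07% of all genes. Cox6c, an accessory subunit, had 206, 218, 201 and 193 CPM in the CD mice and 254, 264, 260.1 and 225 CPM in the HF+SD mice (log2 fold change 0.29, standard error 0.08, adjusted p = 0.0314). Cox6b2 had 7.55, 8.77, 6.17 and 7.55 CPM in the CD mice and 10.9, 10.2, 10.00 and 9.53 CPM in the HF+SD mice (log2 fold change 0.44, standard error 0.12, adjusted p = 0.0400). Cox6b2 passed as higher at both time points, but at each it kept this call in only 2 of the 8 fits with 1 mouse left out. Its level per kb was 2.52% to 3.65% of Cox6b1 in the CD and 3.95% to 4.75% in the HF+SD mice of 3 weeks. Ndufa4l2 and Cox4i2, higher at 6 weeks, had log2 fold changes of 0.57 and 0.64 at 3 weeks (adjusted p = 0.0670 and 0.148). Ndufa4l2 had 4.13, 3.89, 3.60 and 4.05 CPM in the CD mice and 5.11, 4.17, 6.36 and 7.61 CPM in the HF+SD mice, so that the HF+SD mice were above the CD mice. Endothelial markers were higher in 7 of 8 here too (0.0427 to 0.0509% of counts in CD and 0.0756 to 0.107% in HF+SD mice), mural cell markers were higher in 3 of 7, and their part was not tested. Cox8a had 168, 188, 199 and 170.5 CPM in the CD mice and 219.6, 215, 218 and 209 CPM in the HF+SD mice (log2 fold change 0.25, standard error 0.08, adjusted p = 0.0544). Cox7a2l had 85.1, 87.7, 96.2 and 95.6 CPM in the CD mice and 81.04, 77.2, 79.9 and 82.8 CPM in the HF+SD mice (log2 fold change -0.18, standard error 0.07, adjusted p = 0.103). With Ndufa4l2, these were the members of complex IV that separated without passing. Cox6a2 was counted at 1.34 CPM or less in every mouse of 3 weeks (log2 fold change -0.59, adjusted p = 0.338).

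Complex I had the smallest median of the complexes at 3 weeks. Of 35 nuclear subunits of complex I, 2 were higher, Ndufc1 and Ndufb8, beside 9.07% of all genes, and the median was 0.07. Ndufc1, a membrane arm subunit, had 27.5, 31.7, 29.4 and 27.9 CPM in the CD mice and 36.4, 34.5, 38.6 and 34.4 CPM in the HF+SD mice (log2 fold change 0.30, standard error 0.08, adjusted p = 0.0281). Ndufb8 had 88.4, 102, 84.2 and 89.8 CPM in the CD mice and 108, 114, 105 and 115 CPM in the HF+SD mice (log2 fold change 0.28, standard error 0.08, adjusted p = 0.0397). The core subunits Ndufs1, Ndufs3, Ndufs7, Ndufs8, Ndufv1 and Ndufv2 had log2 fold changes of -0.11 to 0.18, none of which passed. Ndufs7, among the lowest at 6 weeks, had 45.1, 55.8, 50.1 and 52.6 CPM in the CD mice and 57.05, 52.95, 57.6 and 53.6 CPM in the HF+SD mice (log2 fold change 0.12, standard error 0.08, adjusted p = 0.348). In complex III, Uqcr11 was the nuclear subunit that was higher (log2 fold change 0.26, standard error 0.07, adjusted p = 0.0376), and Uqcrc1, Uqcrc2 and Uqcrfs1 were within -0.02 to 0.03.

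The interaction of diet and time in a fit of all 16 libraries asked whether the diet effect differed between 3 and 6 weeks. By edgeR's quasi-likelihood test 0 of 90 members passed, in a table where 2 genes passed with a lower effect at 6 weeks (0.0106%) and 13 with a higher one (0.0687%) of 18929. At an unadjusted p under 0.05 there were 75 members, a count not made over all genes. By DESeq2's Wald test 41 passed, all with a lower effect at 6 weeks, where 1790 of 17788 genes passed. The interaction was below 0 in 85 of 90 members, with a median of -0.80 over the nuclear and -0.90 over the 7 mitochondrial genes. No interaction fit included the muscle score. Muscle markers took 0.117 to 17.4% of counts in the CD mice and 0.145 to 0.486% in the HF+SD mice of 6 weeks. The part of muscle in the interaction was not tested. The number that passed moved with the CD libraries of 6 weeks. It was 77 without M22, where 2715 of 19297 genes passed, 42 without M43, where 1285 of 19192 did, and 0 without any other mouse. For Sdhb the interaction was -1.19 (standard error 0.29, adjusted p = 0.0616), for Sdhd -0.52 (standard error 0.21, adjusted p = 0.162) and for mt-Nd5 -0.90 (standard error 0.49, adjusted p = 0.294).

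Nuclear respiratory genes are known for promoters that bind NRF1 and ETS-family factors such as GABP. The 250 bases before the start of each gene were read from RefSeq windows (build GRCm38.p6), which matched 63 of the 80 nuclear members by symbol, and searched on both strands for the letters GCGCANGCG (NRF1-like) and CCGGAAG (ETS-like). The first were present in 14 of 63 members (22.2%) and in 5.86% of all 27025 genes with a window. The second were present in 12 (19.05%) and in 7.83% of all. The 27025 genes were not limited to those tested here (18249 at 6 weeks), whereas all 80 nuclear members were tested, so the sets are unlike. Among the members lower at 6 weeks, 7 and 5 of 29 with a window held them, and among those higher at 3 weeks 1 and 2 of 8. A gene with several windows was counted once if any of them held the letters. The windows of Sdhd, the member of smallest p at 3 weeks, and Cox6a1, the widely expressed partner of Cox6a2, are shown with both motifs in capitals, 5′ to 3′ along the gene, from chr9:50603850-50604099 and chr5:115348959-115349208, both on the minus strand. The first motif of Cox6a1 reads the same on both strands and holds overlapping matches:
Sdhd: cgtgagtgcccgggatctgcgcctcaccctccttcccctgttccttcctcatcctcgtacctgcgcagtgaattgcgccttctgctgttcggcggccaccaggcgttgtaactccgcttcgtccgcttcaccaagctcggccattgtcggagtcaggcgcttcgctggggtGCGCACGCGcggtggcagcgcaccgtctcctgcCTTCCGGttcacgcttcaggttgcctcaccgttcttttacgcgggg
Cox6a1: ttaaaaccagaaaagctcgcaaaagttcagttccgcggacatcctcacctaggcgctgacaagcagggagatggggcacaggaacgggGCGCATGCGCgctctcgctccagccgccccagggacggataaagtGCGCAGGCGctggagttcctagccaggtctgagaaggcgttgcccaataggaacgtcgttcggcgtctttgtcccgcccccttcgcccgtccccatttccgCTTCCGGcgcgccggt

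Genes that build or feed the chain were taken from lists of assembly factors, regulators of mitochondrial biogenesis, and the tricarboxylic acid cycle with pyruvate dehydrogenase. At 6 weeks 6 of 49 assembly factors were lower and 1 higher (median -0.38), 2 of 21 regulators were lower (median -0.14) and 8 of 17 cycle genes were lower (median -0.81), against 9.55% of all genes lower and 12% higher. The mean log2 CPM of the cycle genes was 7.46, 8.10, 8.66 and 8.34 in the CD mice and 7.40 to 7.54 in the HF+SD mice, and that of the assembly factors 4.40, 4.69, 5.17 and 4.92 and 4.39 to 4.46. M22 was thus within the HF+SD range for both. The mean log2 CPM of the regulators was 4.258, 4.305, 4.596 and 4.476 in the CD mice, and there every CD mouse, M22 included, lay above every HF+SD mouse. In each list the other CD mice rose in the order of their muscle share, and the part of muscle in these counts was not tested. Sco1, which carries copper to mt-Co2, was the assembly factor that was higher, with 24.7 ± 3.50 CPM on the CD and 57.3 ± 11.1 CPM on the HF+SD (SD, n = 4 each; log2 fold change 1.21, adjusted p = 0.00186). Ndufaf6, a complex I assembly factor, had 9.02 ± 4.65 CPM on the CD and 3.08 ± 0.566 CPM on the HF+SD (SD, n = 4 each; log2 fold change -1.55, adjusted p = 0.0190). Esrrg, an estrogen-related receptor that drives oxidative genes in muscle and heart, had 11.9 ± 4.01 CPM on the CD and 1.39 ± 0.713 CPM on the HF+SD (SD, n = 4 each; log2 fold change -3.09, adjusted p = 0.00115). Pdhb, of pyruvate dehydrogenase, had 293 ± 74.4 CPM on the CD and 148 ± 7.68 CPM on the HF+SD (SD, n = 4 each; log2 fold change -0.99, adjusted p = 0.00918). At 3 weeks 8 of 49 assembly factors were higher and 0 lower (median 0.11), 1 of 21 regulators was higher and 1 lower, and 1 of 17 cycle genes was higher and 1 lower, against 9.07% of all genes higher and 5.78% lower. Sco1 was again higher, with 27.7 ± 5.57 CPM on the CD and 48.9 ± 5.64 CPM on the HF+SD (SD, n = 4 each; log2 fold change 0.82, adjusted p = 0.00529), without overlap at either time. Fh1, fumarase, which follows complex II in the cycle, had 113 ± 32.1 CPM on the CD and 215 ± 16.3 CPM on the HF+SD (SD, n = 4 each; log2 fold change 0.93, adjusted p = 0.00688). Ppargc1b, a coactivator of mitochondrial biogenesis, had 4.63 ± 2.30 CPM on the CD and 9.60 ± 0.753 CPM on the HF+SD (SD, n = 4 each; log2 fold change 1.05, adjusted p = 0.0440), and Pdhb was lower with 126 ± 12.7 CPM on the CD and 101 ± 7.18 CPM on the HF+SD (SD, n = 4 each; log2 fold change -0.31, adjusted p = 0.0448). Pdhb was thus lower at both time points. Adipocyte markers fell alongside at 3 weeks (7 of 8 white and 5 of 8 brown adipocyte genes, with summed white shares of 0.103 to 0.138% in CD and 0.0414 to 0.0753% in HF+SD mice), and their part in these values was not tested.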

How the data were processed

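Poly(A) RNA of 16 whole thyroids was sequenced as paired 150-base reads. The authors deposited counts, whole numbers of reads per gene in 1 column per mouse, and a table of normalized counts, each count divided by 1 size factor per library, which was not used. The submitters' processing notes name Trim Galore 0.6.7, STAR, DESeq2 1.36.0, R 4.1.0 and the build mm39. For the annotation, the counting rule, the treatment of reads with several positions and the strand setting, the sources used here give nothing. Totals were 30025256 to 48508653 counts, which is the depth behind each value.

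Of 21640 gene identifiers, 20841 were paired with symbols of GENCODE M21 (GRCm38) and 799 were not. Symbols, biotypes, exon lengths and copies came from that annotation, and 13 genes with fitting symbols were left out because they are not protein-coding. No coordinates were converted to mm39. Within each time point, genes passing filterByExpr were fitted with edgeR 4.0.16 (R 4.3.3; TMM factors, glmQLFit and glmQLFTest), and p-values were adjusted by Benjamini-Hochberg over all genes tested. A gene passed at an adjusted p under 0.05. Counts at an unadjusted p under 0.05 were made for members only, so no share of all genes stands beside them. The standard error is the absolute log2 fold change divided by the square root of F, and log2 CPM used a prior count of 2. The interaction of diet and week was fitted over all 16 libraries. Scripts were tested on simulated data. Alternatives were DESeq2 1.42.0, its size factors in edgeR, no filter, 1 fit of all libraries, scaling to thyrocyte genes, TMM without members and muscle genes, a muscle score as a covariate, M22 as the only CD mouse, and each mouse left out. The spread between libraries of a group was far above sampling noise, and no 2 libraries agreed within it.

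The members, lists and alternatives were chosen with earlier results of these data known, so no set test was run and medians stand beside those of all genes. Genes were named where they passed with an absolute log2 fold change above 1, were among the 2 of highest CPM per complex and genome, belonged to the paralog or core subunit lists, or were among the 5 smallest p-values per time point and direction. Some genes that fit this rule are not reported here. In the other pathway lists at most 3 genes per list and time point that passed with the smallest p were named. All other members named, and the mural cell list, were chosen after their values were seen.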

Additional observations from a re-analysis of the deposited data

Results flagged for a closer look

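In groups of 4 mice, 18 of 216 groups of values, from named members and library scores, had 1 mouse far from the other 3. The rule was a gap over range above 0.829, Dixon's 95% critical value, where chance alone gives about 1 in 20. Of the 18 groups, 9 belong to mt-Co2, mt-Co3 and mt-Atp6, mitochondrial genes set apart for their near-identical nuclear copies. Outside these genes such gaps were no more frequent than chance alone gives. At 6 weeks the high mice were M48 for mt-Atp6 (94.2 CPM) and mt-Co2 (15.5 CPM) and M45 for mt-Co3 (3.54 CPM) on the CD, and M34 for mt-Co3 (116 CPM) on the HF+SD. At 3 weeks they were M53 for mt-Atp6 (0.0495 CPM) and M54 for mt-Co2 (1.02 CPM) on the CD, and M19y for mt-Atp6 (0.0256 CPM) and mt-Co3 (40.7 CPM) and M7 for mt-Co2 (0.0269 CPM) on the HF+SD. For mt-Atp6, M53 had 2 counts and M19y 1, and for mt-Co2, M7 had 1. The other mice of these groups had 0. Against values of 0, even 1 count gives a gap over range of 1, so these flags mark counts at the floor.

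Among the other members on the HF+SD at 6 weeks, M5 was highest in Cox6a2 (24.3 CPM) and M18 in Cox4i1 (605 CPM), whereas M35 was lowest in Cox7a2 (246 CPM) and Ndufs1 (127 CPM) and M34 in Ndufs7 (68.6 CPM). M5 also had the highest muscle share of that group, 0.486% of counts. At 3 weeks, M55 was highest in mt-Nd1 (2512 CPM) on the CD. On the HF+SD, M20y was highest in Atp5g2 (70.3 CPM), and M31 was lowest in Cox7a2 (111 CPM) and in the share of the 7 mitochondrial subunits (2.41% of counts).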

How the results depend on the processing

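The lower subunits of 6 weeks depended on which CD mice were used. With the muscle score as a covariate 0 members were lower, the nuclear median was -0.17 and the median of the 7 mitochondrial subunits was 0.45. There 36 of 90 members, the 7 mitochondrial subunits included, were above 0, compared with 9 in the main fit. The medians of complex II (0.23) and complex V (0.0156) turned above 0, as did mt-Nd5 (0.95) among other genes. With M22 as the only CD mouse the nuclear median was -0.00623 and the mitochondrial one 0.62, and 51 of 91 members were above 0. The medians of complexes II (0.41), III (0.0512), IV (0.11) and V (0.16) turned above 0, as did Cox6a2 (0.44), mt-Co1 (0.73) and mt-Nd5 (1.27) among other genes. One fit of all 16 libraries gave 64 lower at 6 weeks and 0 higher at 3 weeks. Scaling to thyrocyte genes, which were lowest in M43, M45 and M48 at 6 weeks, gave 72 lower and 1 higher there. The medians were -1.32 and -1.22 for the nuclear and mitochondrial subunits, beside -0.59 for all genes. At 3 weeks this scaling gave 1 higher. DESeq2's Wald test gave 1 lower at 3 weeks and 41 members with an interaction. The cause was not tested.

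With 1 mouse left out, the lower members of 6 weeks numbered 1 to 64 and the higher 2 to 4, the higher members of 3 weeks 4 to 22 and the lower 0, and the members with an interaction 0 to 77. The medians of nuclear subunits ranged from -0.80 to -0.47 at 6 weeks and from 0.07 to 0.14 at 3 weeks, those of the 7 mitochondrial subunits from -0.74 to -0.25 and from 0.27 to 0.35, and that of the interaction from -0.93 to -0.58. Ndufb4, Cox4i2 and Ndufa4l2 at 6 weeks and Sdhd, mt-Cytb and mt-Nd6 at 3 weeks kept their call without any single mouse. With the muscle score as a covariate, Ndufb4 did not pass edgeR's quasi-likelihood test (-0.59, adjusted p = 0.0529). The genes of 3 weeks did not pass in 1 fit of all 16 libraries. No paired analysis was possible because the groups share no mouse numbers. The levels of mt-Co2, mt-Co3, mt-Atp6 and mt-Nd3 are uncertain because of their nuclear copies, and 4 mice per group limit all tests.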
